A study of Mus musculus with 31 samples.

Results

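Phase II conjugation enzymes were taken as all protein-coding genes whose GENCODE vM21 symbol starts with Gst, a class letter and a digit, with Ugt and a digit, or with Sult and a digit, and that had 10 or more counts in at least 3 samples in both count tables. Of 65 genes with such a symbol, 46 passed, among 34519 gene identifiers present in both tables. They comprised 20 of 22 glutathione S-transferase (Gst) genes, 18 of 22 UDP-glycosyltransferase (Ugt) genes and 8 of 21 sulfotransferase (Sult) genes. The 19 genes that did not pass were Gsto2, Gstt4, Ugt1a2, Ugt1a8, Ugt2a1, Ugt2a2, Sult1c1, Sult2a1 to Sult2a6, Sult2b1, Sult3a1, Sult3a2, Sult4a1, Sult6b1 and Sult6b2. Only 20 of the 46 members also reached 10 counts in at least 3 of the 8 muscle samples, and these were 15 Gst, 2 Ugt and 3 Sult genes. The rule used the counts of all samples and no comparison between groups.

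Phase II enzymes join a polar group to drugs, steroids, bile acids, bilirubin and reactive products of metabolism, so that these can be excreted. Glutathione S-transferases add glutathione, UDP-glucuronosyltransferases add glucuronate from UDP-glucuronate, and sulfotransferases add sulfate from PAPS. The liver is the main site of all 3 reactions, where many of these genes respond to nuclear receptors, to NRF2 and to the sex-dependent pattern of growth hormone.

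The study concerned insulin action and ERRα, an orphan nuclear receptor encoded by Esrra that controls genes of energy metabolism. Total RNA of liver and of skeletal muscle (gastrocnemius and soleus) was sequenced, and 31 samples in 8 groups were used. In the insulin experiment, WT and ERRα-/- males fasted for 12 h were injected intraperitoneally with saline or with insulin at 1 unit per kg, and livers were taken 4 h later. In the ERRα3SA experiment, livers and muscles came from WT males and from males with an Esrra allele made by CRISPR/Cas9, in which 3 serines of ERRα are changed to alanine. All mice were on the C57BL/6N background, 2 to 3 months old, fed a standard diet and compared with littermates. Each group had 4 samples except ERRα-/- insulin, which had 3 (replicates 1, 2 and 4).

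Total counts, in replicate order, were 38537068, 37508292, 40800316 and 41740965 in WT saline livers and 38518400, 35871419, 38856911 and 40590962 in WT insulin livers. They were 40138959, 39250853, 48317108 and 42874994 in ERRα-/- saline livers and 40067603, 39188721 and 38156804 in ERRα-/- insulin livers. The insulin experiment was thus counted more deeply than the ERRα3SA experiment. There, the totals were 33412022, 26176391, 24687935 and 23426588 in WT livers and 22836176, 22471238, 22454730 and 20481405 in ERRα3SA livers. The totals were 25831378, 23561675, 25058838 and 24923581 in WT muscles and 22241960, 27869143, 28835765 and 25318757 in ERRα3SA muscles. Levels are given in CPM, a gene's counts scaled to 1 common library size, scaled with TMM factors computed for each experiment and tissue, and levels set side by side across the 2 tables or across tissues carry no test unless one is named.

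Esrra was measured first, since the groups rest on it. It stood at 32.3, 51.3, 42.7 and 40.5 CPM in WT saline livers and at 53.7, 96.4, 56.1 and 59.0 CPM in WT insulin livers. In ERRα-/- livers it was 1.63, 0.703, 1.15 and 1.04 CPM after saline and 0.833, 0.576 and 0.298 CPM after insulin. Each ERRα-/- liver lay far below each WT liver. Esrra fell by 5.20 on the log2 scale after saline (SE 0.243, adjusted p = 2.58e-06) and by 6.86 after insulin (SE 0.370, adjusted p = 3.55e-05), by the quasi-likelihood test of edgeR, adjusted over all genes by Benjamini-Hochberg. The deletion is carried in all tissues, so a liver difference in these mice can follow from loss of ERRα elsewhere, and the 2 cannot be told apart. The ERRα3SA allele keeps the transcript, so the counts do not check that label. Esrra was 26.2, 25.7, 26.8 and 28.0 CPM in WT livers and 27.9, 24.1, 20 and 18.4 CPM in ERRα3SA livers of that experiment. In muscle it was 94.1, 86.0, 69.7 and 81.5 CPM in WT samples and 25.8, 139.5, 133.9 and 102.4 CPM in ERRα3SA samples, with replicate 1 alone below all WT muscles. Xist was at most 0.388 CPM in all samples, beside a male label.

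Tissue labels matched their defining markers. The 8 hepatocyte markers, led by Alb, summed to at least 68981 CPM in each liver and at most 1.44 CPM in each muscle. The 8 skeletal muscle fibre markers summed to at least 96046 CPM in each muscle and at most 13.3 CPM in each liver other than WT insulin replicate 3, which held 93.7 CPM. In bulk samples such as these, fewer cells of a type and less RNA per cell cannot be told apart.

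Several libraries stood apart before any comparison was made. ERRα3SA muscle replicate 1 had 19.3% of its counts on mitochondrial genes, against 9.15% to 9.85% in the other 3 and 10.04% to 10.82% in WT muscles. ERRα3SA muscle replicate 4 held 1564 CPM of Col3a1, a fibrillar collagen, against at most 460.9 CPM in the other muscles. Its fibroblast markers summed to 2918 CPM, its macrophage markers to 85.9 CPM (34.7 CPM or less in the other muscles) and its neutrophil markers to 10.4 CPM, while Ly6g and Clec4f were at 0 in all ERRα3SA muscles. ERRα3SA liver replicate 4 had the lowest level of its group for 30 of the 42 members with a mean of 1 CPM or more, beside 34.9% of all genes. Its median log2 ratio to the other 3 livers was -0.48 for members, beside 0.01 for all genes. In the same group, replicate 3 had the highest level for 27 of those 42 members, beside 25.9% of all genes. Among ERRα-/- saline livers, replicate 4 was the lowest for 21 of 42 members, beside 24.8% of all genes. Its median log2 ratio to the other 3 was -0.35 for members, beside 0.00 for all genes. Replicate 1 was the highest for 16 and the lowest for 2, beside 24.3% and 24.2% of all genes. Replicate 2 of that group was the highest for 15 and the lowest for 8, beside 23.9% and 24.1% of all genes. Its male-biased liver genes summed to 7010 CPM against 4388, 4487 and 3946 CPM in replicates 1, 3 and 4. Similar rank counts occurred in other liver groups. In WT livers of the ERRα3SA experiment, replicate 4 was the lowest for 21 of 41 members and replicate 3 the highest for 20, beside 24.5% and 26.7% of all genes. ERRα-/- insulin replicate 2 was the highest for 21 of 40, beside 37.6%, and WT insulin replicate 1 the lowest for 19 of 41, beside 25.8%. Digestive enzyme genes of exocrine pancreas summed to 1227, 60.7, 4.04 and 1660 CPM in WT saline livers and to 286.4, 32.8, 4.26 and 137.4 CPM in ERRα-/- saline livers, so pancreatic RNA differed among livers of a group. Counts of members called that rest on these libraries, and the named differences that moved most without them, are given both ways.

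The genes lie largely in clusters. The 7 Gstm genes span 149 kb of chromosome 3, the 3 Gstp genes 24.2 kb of chromosome 19, the 3 Gstt genes 63.3 kb of chromosome 10, and 3 of the 4 Gsta genes 173 kb of chromosome 9. The 7 Ugt1 genes span 165 kb of chromosome 1 and the 8 Ugt2 genes 534 kb of chromosome 5, with Sult1b1, Sult1d1 and Sult1e1 beside them. The Gstp cluster lies 2.85 Mb from Esrra, the gene targeted in the ERRα-/- mice, on the same chromosome.

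Shared sequence limits some of these counts, because a read was counted only when it overlapped 1 gene. The Ugt1a genes have first exons of their own and share their last exons, so only 17.3% of exon bases of Ugt1a1 and 35.7% to 49.7% of those of the other 6 belong to no other gene. Near-identical paralogs share bases too. Of 100-base windows of Gsta1, 19.4% occurred in no other gene, and for Gstp1 and Gstp2, which resemble each other, the shares were 74.9% and 53.1%. For Ugt2b5 and Ugt2b38, again a similar pair, they were 75.3% and 75.8%. Levels per kilobase (CPM per kb) below use only exon bases that no other annotated gene overlaps, with lengths from GENCODE vM21, which was assumed to match the annotation behind the counts.

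Summed over members, conjugation genes took 6468 ± 210 CPM (SD, n = 4) in WT saline livers, of which Ugt genes held 3057 ± 203, Gst genes 2442 ± 118 and Sult genes 969 ± 84.9 CPM. In WT livers of the ERRα3SA experiment the sum was 12053 ± 954 CPM (n = 4), with Gst genes at 6402 ± 716, Ugt genes at 4348 ± 180 and Sult genes at 1304 ± 144 CPM. WT muscle held 485.4 ± 8.07 CPM (n = 4), nearly all of it Gst (467.1 ± 6.98 CPM), with Ugt at 5.55 ± 1.03 and Sult at 12.7 ± 1.39 CPM. Gst was thus the only one of the 3 superfamilies with a substantial level in muscle, and the liver sets of the 2 experiments differed most in Gst. The livers of one experiment came from fasted and injected mice, and each experiment has its own count table, so fasting, injection and other differences between the experiments cannot be told apart there.

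**Figure D1:**
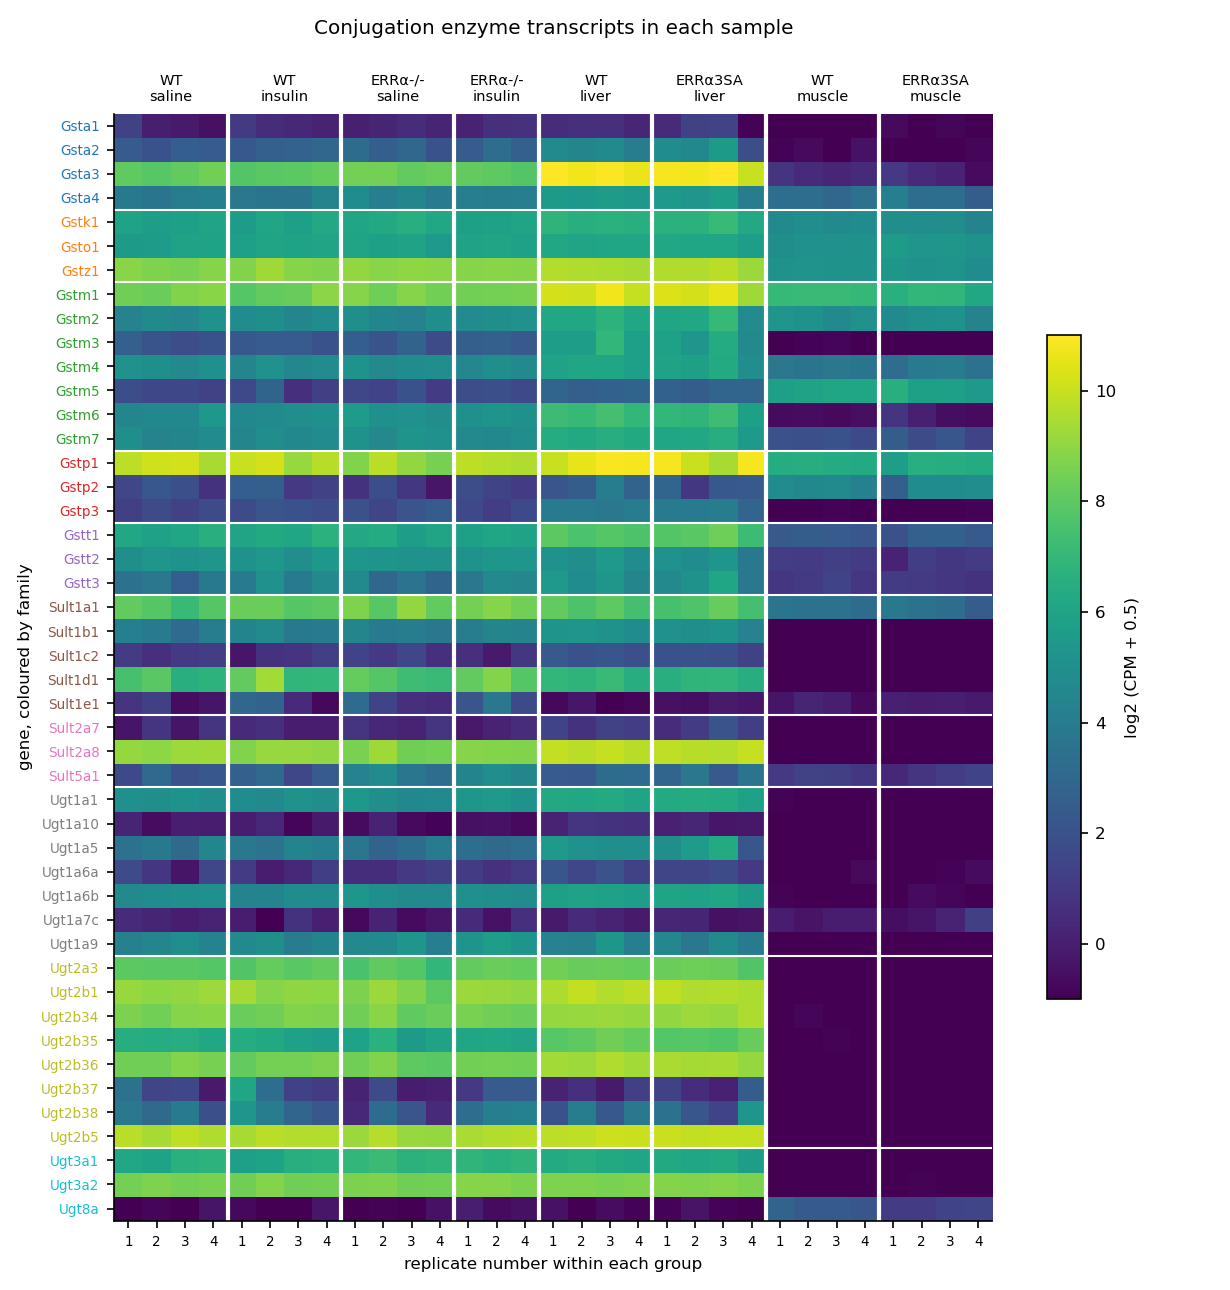
Level of each of the 46 members in each of the 31 samples, as log2 of CPM plus 0.5, with 1 line of cells per gene by family and 1 column per sample by group and replicate. Muscle columns are dark, near the bottom of the scale, for nearly all Ugt and Sult genes, while Gstm1, Gstp1 and Gstm5 are brighter there, at 128.1 to 137.7, 80.5 to 89.4 and 53.95 to 67.2 CPM in WT muscles.

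Among alpha-class genes, which reduce lipid hydroperoxides and bind bulky ligands, Gsta3 (ENSMUSG00000025934, chr1:21240589-21265661) was at 266.4, 238.6, 280.3 and 345.8 CPM in WT saline livers. In WT livers of the other experiment it was at 2059, 1700, 1971 and 1623 CPM, several times each value of the first set. Gsta4, which acts on the lipid peroxidation product hydroxynonenal, was at 13.7, 12.4, 16.3 and 17.7 CPM in WT saline livers and at 9.57, 9.25, 7.41 and 10.98 CPM in WT muscles. Per length, Gsta3 stood at 65.1 ± 10.5 CPM per kb (n = 4) and Gsta4 at 11.9 CPM per kb in WT saline livers. Gsta3 made up 93.2% of the Gsta sum there, whereas Gsta4 made up 89.9% of it in WT muscle. Gsta1 and Gsta2 stayed at or under 7.40 CPM in all 8 WT livers of the insulin experiment.

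The mu class, which conjugates epoxides and other electrophiles, was led by Gstm1 (ENSMUSG00000058135, chr3:108012255-108017973) at 340.2, 314.1, 424.8 and 463.5 CPM in WT saline livers. In WT muscles it was at 130.8, 133.9, 137.7 and 128.1 CPM, a narrow range. Its level per length was 261.8 ± 47.6 CPM per kb in WT saline livers and 90.05 ± 2.80 CPM per kb in WT muscles (n = 4 each). Gstm4, the next mu-class gene per length in WT saline livers, stood at 32.7, 30.7, 24.7 and 31.9 CPM, or 17.6 ± 2.13 CPM per kb, close to Gstm7 (15.8 ± 3.08), Gstm2 (15.3 ± 3.60) and Gstm6 (14.1 ± 4.76 CPM per kb). In WT livers of the other experiment the mean of Gstm4 was below the means of those 3 and of Gstm3. In muscle the order was different, with Gstm5 (ENSMUSG00000004032, chr3:107895821-107898686) at 53.95, 60.4, 67.2 and 66.5 CPM, and Gstm2 at 38.4, 35.7, 26.2 and 32.9 CPM. Per length these were 56.4 ± 5.62 and 19.8 ± 3.13 CPM per kb in WT muscle. Of the exon bases of Gstm5, 86.1% belong to no other gene.

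Gstp1 (ENSMUSG00000060803, chr19:4035407-4037985), the pi-class enzyme known as a major glutathione transferase of male mouse liver, had the highest level per length of the 46 members in WT saline livers, 625.4 ± 142.7 CPM per kb. Its levels there were 906.7, 1119, 1164 and 682.7 CPM. The spread between WT livers was wide, and it was wide again in the other experiment, at 1035, 1488, 1873 and 1855 CPM. WT muscles held 85.8, 89.4, 83.4 and 80.5 CPM, or 54.8 ± 2.42 CPM per kb. Gstp3 reached 1.94, 2.97, 2.08 and 2.96 CPM in WT saline livers (2.74 CPM per kb). Gstp2 was the fourth member per length in WT muscle, at 26.97, 23.5, 25.2 and 18.8 CPM and 21.2 ± 3.18 CPM per kb, with the limit that part of its sequence is shared with Gstp1.

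Liver also held genes of the theta class and of 2 single-gene classes. Gstt1, which acts on halogenated compounds, was at 73.9, 57.7, 65.9 and 90.4 CPM in WT saline livers (47.1 ± 9.13 CPM per kb), and Gstt2 at 30.6, 38.5, 35.8 and 38.2 CPM (8.6 CPM per kb). Gstz1, maleylacetoacetate isomerase of tyrosine breakdown, was at 461.3, 417.1, 391.5 and 460.2 CPM (96.8 ± 7.67 CPM per kb). Gstk1, a mitochondrial and peroxisomal transferase, was at 60.9, 50.4, 54.9 and 65.0 CPM (39.4 ± 4.39 CPM per kb). Gstz1 had the narrower relative range of the last pair.

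Of the Ugt1 genes, Ugt1a1 (ENSMUSG00000089960, chr1:88211959-88218997), the bilirubin-conjugating enzyme, was at 31.6, 31.4, 35.2 and 30.02 CPM in WT saline livers. Ugt1a6b, of a subfamily that acts on planar phenols, was at 24.6, 28.2, 30.6 and 32.4 CPM. These counts come from the bases each gene does not share, and per kilobase of such bases the levels were 83.2 ± 5.70 and 30.9 ± 3.59 CPM per kb. Ugt1a7c and Ugt1a10 were at or under 1.24 CPM in all livers.

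The Ugt2 family, which glucuronidates steroids, bile acids and drugs, held most of the Ugt counts. Ugt2b5 (ENSMUSG00000054630, chr5:87124960-87140318) was at 879.0, 683.3, 929.4 and 761.6 CPM in WT saline livers, and Ugt2b1 at 563.8, 496.3, 536.2 and 600.5 CPM. Per length Ugt2b5 was the second of all members at 437.7 ± 60.1 CPM per kb and Ugt2b1 the fourth at 213.4 ± 17.1 CPM per kb, with Gstm1 between them and overlapping Ugt2b1 within their SDs. Ugt2b36 (181.2 ± 22.6), Sult2a8 (173.8 ± 16.4) and Sult1a1 (151.0 ± 40.7 CPM per kb) followed as neighbours that do not differ beyond their spread. Ugt2b37 and Ugt2b38 were low and uneven, at 0.416 to 11.1 and 3.26 to 14.4 CPM. Ugt3a2 and Ugt3a1, which use sugar donors other than UDP-glucuronate, stood at 356.4, 415.2, 363.5 and 379.6 CPM and at 72.2, 62.5, 99.0 and 108.2 CPM (122.1 ± 8.45 and 32.0 ± 8.10 CPM per kb). Ugt8a, the galactosyltransferase that makes galactosylceramide of myelin, was the lowest member per length there, at 0.0211 CPM per kb.

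Sulfotransferases were led by Sult2a8 (ENSMUSG00000030378, chr7:14410686-14446769), which sulfates bile acids, at 554.3, 502.2, 602.9 and 623.2 CPM in WT saline livers. Sult1a1, which acts on simple phenols, was at 280.6, 226.0, 138.6 and 228.3 CPM, and Sult1d1, which acts on catecholamines and other phenols, at 183.8, 247.6, 91.4 and 108.7 CPM (64.2 ± 29.3 CPM per kb). In replicates 3 and 4 Sult1d1 lay within its range in WT livers of the other experiment, where it was at 124.2, 110.7, 140.3 and 89.0 CPM. Sult5a1 was at 2.67, 8.03, 3.38 and 4.37 CPM (1.04 CPM per kb).

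**Figure D2:**
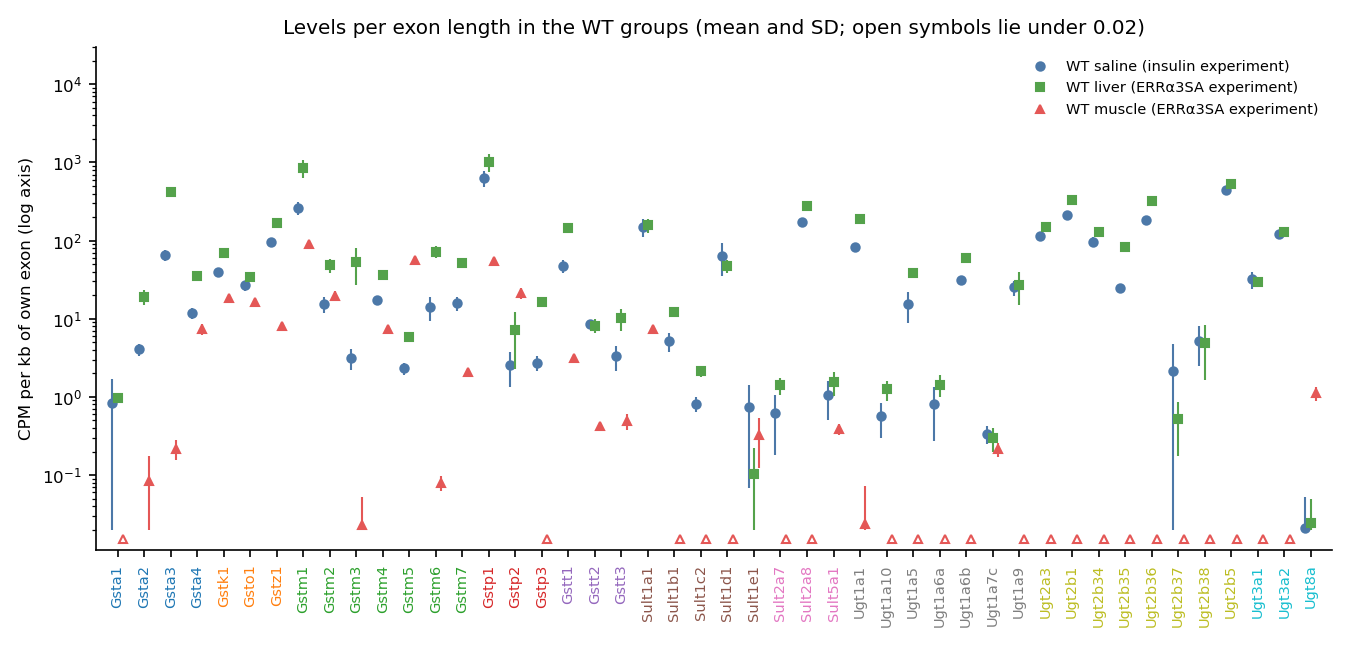
Level per length of each of the 46 members, in CPM per kb of own exon on a log axis, as the mean and SD of 4 samples in WT saline livers (circles), WT livers of the ERRα3SA experiment (squares) and WT muscles (triangles, open where under the axis). Gstp1 is highest in WT saline livers at 625.4 CPM per kb, and Gstm1 is highest in WT muscles at 90.05 CPM per kb.

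Promoter windows, 250 bases before to 50 bases after a gene's start, were taken from RefSeq (GRCm38.p6) and matched 41 of 46 members by symbol, with 50 windows. Gsta4, Gstt2, Sult2a7, Ugt1a6b and Ugt3a2 had no entry. Both strands were searched for 3 motifs. The ERR response element TNAAGGTCA, the element that ERRα binds, was found in 1 of the 41 members, Sult2a8. It was found in 1.43% of all 27025 symbols and in 1.28% of all 32851 windows. The antioxidant response element core TGACNNNGC was found in 3 members, Gsta3, Gstm5 and Gstm7, and in 12.4% of all windows. The aryl hydrocarbon receptor core GCGTG was found in 10 members (Gsta1, Gsta2, Gstm1, Gstm5, Gstp1, Gstp3, Sult1b1, Sult1d1, Ugt1a5 and Ugt8a). It was found in 35.2% of all symbols and in 32.4% of all windows. A match describes letters in a window and says nothing of binding. Shown are the window with the ERR element, since Esrra is the gene altered here, and the windows of Gsta3 and Gstm5, the leading Gsta gene of liver and the Gstm gene higher in muscle. Capitals mark the match. In the Sult2a8 window (chr7:14438502-14438801, minus strand) it begins 167 bases before the start, and the window lies within the annotated gene, with 60 of its bases in exons. In the Gsta3 window (chr1:21240335-21240634, plus strand) the match begins 121 bases before the start. In the Gstm5 window (chr3:107895604-107895903, plus strand) it begins 42 bases before the start, overlaps a GCGTG match on the other strand, and the window also overlaps the gene 4933431E20Rik.
Sult2a8: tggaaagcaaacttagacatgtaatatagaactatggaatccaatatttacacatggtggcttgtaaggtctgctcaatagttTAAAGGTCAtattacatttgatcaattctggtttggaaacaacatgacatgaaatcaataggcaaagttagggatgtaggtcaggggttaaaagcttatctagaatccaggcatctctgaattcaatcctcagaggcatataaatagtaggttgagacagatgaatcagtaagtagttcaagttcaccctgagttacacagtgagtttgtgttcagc
Gsta3: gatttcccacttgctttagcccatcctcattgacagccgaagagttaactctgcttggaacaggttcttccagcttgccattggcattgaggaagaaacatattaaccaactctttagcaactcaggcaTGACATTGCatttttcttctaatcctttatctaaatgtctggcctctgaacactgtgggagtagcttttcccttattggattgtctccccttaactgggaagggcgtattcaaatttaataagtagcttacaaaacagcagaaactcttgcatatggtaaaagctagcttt
Gstm5: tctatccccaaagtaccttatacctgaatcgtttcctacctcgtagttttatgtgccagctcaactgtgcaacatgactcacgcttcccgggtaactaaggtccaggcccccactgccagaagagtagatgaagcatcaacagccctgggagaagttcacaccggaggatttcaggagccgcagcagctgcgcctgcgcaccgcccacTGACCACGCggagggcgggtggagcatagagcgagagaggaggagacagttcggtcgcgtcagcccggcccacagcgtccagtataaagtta

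Spread between replicates was larger for these genes than for genes at large in 4 of the 6 liver groups. The median coefficient of variation of members with a mean of 1 CPM or more was 30.6% in ERRα-/- saline livers, beside 15.5% for all such genes, 27.5% beside 12.7% in ERRα3SA livers, 14.4% beside 8.57% in WT livers of that experiment, and 18.8% beside 14.6% in WT saline livers. It was 19.7% beside 19.9% in WT insulin and 9.89% beside 11.6% in ERRα-/- insulin livers. In muscle it was 9.97% beside 8.76% in WT and 25.1% beside 25.2% in ERRα3SA samples. These medians are descriptions without a test.

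WT muscle was compared with WT liver of the same experiment to show which conjugation genes each tissue uses. The labels do not tell whether a liver and a muscle came from 1 mouse, and the 2 were fitted as unpaired. Of 45 members tested, 3 were higher in muscle and 41 lower by the quasi-likelihood test of edgeR at an adjusted p under 0.05. Of all 14886 genes tested, 43.1% were higher and 43.4% lower. By the study's own criterion, an unadjusted p under 0.05 with a fold change of at least 1.2, applied here to edgeR where the study used DESeq2, the same numbers of members passed, 3 and 41, beside 42% and 42.2% of all genes. The median log2 difference of members was -7.88, or -6.60 with the 17 members at 0 muscle counts set to their bound (given below), beside 0.00 for all genes. The rule for members asked for counts that most liver genes reach, so nothing is read from that share.

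The 3 genes higher in muscle were Ugt8a, Gstm5 and Gstp2. Ugt8a was at 0.241, 0, 0.163 and 0.0424 CPM in WT livers and at 6.56, 4.73, 4.77 and 4.19 CPM in WT muscles, a log2 difference of 5.25 (SE 0.398, adjusted p = 1.73e-08, edgeR). Gstm5 was at 7.09, 5.68, 6.11 and 6.87 CPM in livers, all far below the muscles, and rose by 3.16 (SE 0.0987, adjusted p = 7.29e-13, edgeR). Gstp2 was at 4.01, 5.38, 16.2 and 6.62 CPM in livers and differed by 1.47 on the log2 scale (SE 0.312, adjusted p = 0.000536, edgeR), with no overlap between tissues for any of the 3. Among the genes lower in muscle, 17 had no muscle count at all in WT samples. Against a floor of 3 counts over the 4 muscles (0.0294 CPM, which covers counting error only), Ugt2b5 was at least 33665-fold lower, Sult2a8 at least 31044-fold, Ugt2b1 at least 28745-fold, Ugt2b36 at least 22705-fold, Ugt3a2 at least 13707-fold and Ugt2a3 at least 10696-fold. Those 6 genes were at 292.1 to 1085 CPM in the WT livers and had the largest fitted falls, in each case with no muscle count. They passed the rule for members in that experiment through its livers alone, so these falls are descriptions and no support is drawn from them. Genes with a few muscle counts, such as Ugt2b34 with 2, have no such bound, so their place beside these 6 is open. The Gst genes were uneven, with Gstp1 at -4.30 and Gstm1 at -3.35 but Gsta3 at -11.02 and Gstm6 at -9.90 on the log2 scale. Ugt1a7c (-0.56, adjusted p = 0.127, edgeR) did not pass, and Sult1e1 was too low to be tested.

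Insulin was compared with saline in WT livers, to see which conjugation genes respond within 4 h. No member passed an adjusted p under 0.05 in edgeR's quasi-likelihood test among 45 tested, beside 3.16% of all 13463 genes. DESeq2 called 1 as higher, Gstt3, beside 3.22% of all genes, and 1 member had an unadjusted p under 0.05 in edgeR, beside 17.5% of all genes. By the study's criterion 1 member was higher, Gstt3 again, and 0 lower, beside 8.34% and 8.91% of all genes. Leaving out 1 library gave at most 5 members, 4 higher and 1 lower without WT insulin replicate 4, beside 7.41% and 7.6% of all genes. The median log2 difference was 0.06, beside 0.00 for all genes. Gstt3 (ENSMUSG00000001665, chr10:75774115-75781414), a theta-class transferase, was at 11, 13.1, 5.48 and 14.1 CPM after saline and at 15.0, 33.0, 14.6 and 24.3 CPM after insulin. The 2 groups did not overlap, although the highest saline liver and the lowest insulin liver lay close together. The log2 difference was 0.99 (SE 0.322, adjusted p = 0.139, edgeR).

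Ugt2b37, a Ugt2 gene, was at 11.1, 2.34, 2.47 and 0.416 CPM after saline and at 66.5, 9.50, 1.98 and 1.61 CPM after insulin. Replicate 1 was the highest in each group, and the groups overlapped (log2 difference 2.28, SE 1.15, adjusted p = 0.332, edgeR, and 0.09 without insulin replicate 1). Sult1e1, the estrogen sulfotransferase, was at 1.32, 1.92, 0.160 and 0.300 CPM after saline and at 7.41, 6.61, 0.884 and 0.0948 CPM after insulin. Here replicates 1 and 2 were the higher pair in both groups, and the groups overlapped (log2 difference 2.03, SE 1.04, adjusted p = 0.341, edgeR). Sult1d1, its neighbour on chromosome 5, was at 277.8, 641.3, 120.7 and 124.3 CPM after insulin, where replicates 1 and 2 stood above the others as they did after saline. The labels do not tell whether equal replicate numbers pair the samples. Correlations of same-number livers ran from -0.0226 to 0.387 over 4 pairs with insulin in WT livers, with 3 above 0.1. They ran from -0.00227 to 0.438 over 4 pairs for ERRα3SA against WT livers, with 2 above 0.1. With 3 or 4 pairs per comparison within liver, such values cannot settle whether the numbers pair samples. With the replicate number as a block, 1 member, Gstt3, had an adjusted p under 0.05, as higher, beside 1.49% of all genes. In that fit of this comparison, 5 members met the criterion as higher and 2 as lower, beside 8.01% and 9.4%, against 1 and 0 without the block.

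Values of 4 abundant members follow. Gstm1 was at 225.5, 275.8, 300.8 and 477.1 CPM after insulin, Gstp1 at 1028, 1197, 578.9 and 837.2 CPM, and Ugt2b5 at 683.2, 856.0, 792.3 and 795.0 CPM. Sult2a8 was at 420.8, 576.6, 568.2 and 527.8 CPM. Each of these 4 overlapped its saline group, as did Sult1d1 (log2 difference 0.88, SE 0.507, adjusted p = 0.4, edgeR). The lowest log2 difference of the 45 members was -0.53.

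In ERRα-/- livers, insulin was compared with saline in 4 and 3 samples. No member of 44 tested passed an adjusted p under 0.05 in edgeR's quasi-likelihood test, nor in DESeq2, beside 2.91% of all 13684 genes in edgeR and, in DESeq2, 3.54% higher and 3.68% lower. An unadjusted p under 0.05 was reached by 9 members, or 20.5%, beside 17.8% of all genes. By the study's criterion 6 were higher (Ugt2b38, Ugt2b37, Ugt2a3, Ugt1a9, Sult1d1 and Gstp1) and 3 lower (Gstk1, Gsta3 and Gstm7), beside 8.05% and 9.14% of all genes. The median log2 difference was 0.11, beside -0.02 for all genes.

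Gstk1 was at 68.8, 78.2, 90.7 and 71.6 CPM after saline and at 56.2, 57.9 and 63.5 CPM after insulin in ERRα-/- livers. Each insulin liver was below each saline liver (log2 difference -0.39, SE 0.118, adjusted p = 0.110, edgeR). Gsta3 was at 359.4, 355.4, 280.2 and 305.5 CPM after saline and at 276.2, 263.2 and 220.2 CPM after insulin, again without overlap, the closest pair being 280.2 and 276.2 CPM (log2 difference -0.36, SE 0.135, adjusted p = 0.183, edgeR). Ugt2b38 was at 0.761, 8.61, 4.03 and 0.864 CPM after saline and at 9.26, 17.0 and 19.0 CPM after insulin. Replicate 2 of the saline group came nearest to the insulin livers without reaching them (log2 difference 2.07, SE 0.674, adjusted p = 0.131, edgeR).

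That saline replicate 2 weighed on the comparison. Without it, 14 members of 44 met the criterion as higher and 3 as lower, against 6 and 3 with it, beside 8.91% and 8.7% of all genes in that refit. At an adjusted p under 0.05, 1.56% of all genes were then higher and 1.55% lower, and Gstp1 (0.90), Ugt2b37 (2.80) and Ugt2b38 (2.99 on the log2 scale) reached an adjusted p under 0.05. Without replicate 1 of the saline group, Gstt3 was called (beside 1.53% of all genes higher and 1.32% lower), and without replicate 3, Ugt1a9 was called (2.41% and 2.11%). Without replicate 4, 0 members were called, and 2 met the criterion as higher and 4 as lower, beside 6.95% and 7.67% of all genes. Without insulin replicate 2, 1 was higher and 2 lower, beside 5.41% and 6.85%. In a fit blocked on replicate number, 2 members were called as higher in this comparison, beside 2.11% of all genes. In the same comparison, the 12 male-biased liver genes, led by Mup20, summed to 7457, 8340 and 7591 CPM in the insulin livers and had 6 members higher by the criterion, 0 lower and a median log2 difference of 0.51, and 1 of them, Cyp7b1, rose by 1.71 (adjusted p = 0.0367, edgeR). Exocrine pancreas markers, 6 of 6 lower by the criterion with a median of -5.46, were at 10.1, 5.68 and 6.46 summed CPM in the insulin livers. Ctrb1 was their most abundant gene in saline livers and Cela1 in insulin livers, and none was at 0 in a whole group. The part of either list in the members' values was not tested.

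The effect of insulin in WT livers minus that in ERRα-/- livers, which asks whether the response depends on ERRα, was tested in all 15 livers. No member of 46 passed an adjusted p under 0.05 in edgeR or in DESeq2, beside 0% of 14670 genes in edgeR, and 3 members had an unadjusted p under 0.05, beside 8.79% of all genes. By the criterion 2 were positive and 1 negative, beside 4.75% and 4.04% of all genes. The median was -0.05, beside 0.02 for all genes. Gstp3 was at 2.82, 3.94, 3.54 and 3.06 CPM in WT insulin livers. Replicate 1 lay within the range of the WT saline livers and the others lay above it. In ERRα-/- livers Gstp3 was at 3.49, 2.30, 3.94 and 5.19 CPM after saline and 2.68, 1.78 and 2.69 CPM after insulin (difference 1.07, SE 0.391, adjusted p = 0.5001, edgeR). Gstk1 was at 48.5, 67.1, 54.2 and 75.02 CPM in WT insulin livers (difference 0.47, SE 0.202, adjusted p = 0.545, edgeR). Ugt1a1 was at 28.0, 26.0, 34.0 and 30.02 CPM in WT insulin livers, at 41.4, 30.4, 24.02 and 25.1 CPM in ERRα-/- saline livers and at 40.4, 43.2 and 34.9 CPM in ERRα-/- insulin livers (difference -0.51, SE 0.224, adjusted p = 0.547, edgeR). For all 3, WT saline and WT insulin livers overlapped. Without ERRα-/- saline replicate 2, 2 members were positive and 7 negative by the criterion, beside 5.26% and 4.64% of all genes, and 0 had an adjusted p under 0.05. Without replicate 4 of that group, 2 were positive and 0 negative, beside 3.52% and 3.18%.

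ERRα-/- livers were compared with WT livers after saline to find genes that depend on ERRα in the fasted state. No member of 45 tested passed an adjusted p under 0.05 in edgeR's quasi-likelihood test, beside 0.0816% of all 13481 genes. DESeq2 called 2, Sult5a1 as higher and Gstp1 as lower, beside 1.02% and 0.816% of all genes, and 8 had an unadjusted p under 0.05 in edgeR, or 17.8% beside 12.1%. By the criterion 5 were higher (Sult5a1, Gstk1, Ugt3a1, Sult1a1 and Gsta4), beside 5.98% of all genes, and 3 lower (Gstp1, Ugt2b5 and Sult2a8), beside 5.3%. The median log2 difference was 0.04, beside 0.00 for all genes. The comparison shares its ERRα-/- samples with the insulin comparison above and its WT samples with the WT one.

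Sult5a1 (ENSMUSG00000000739, chr8:123140192-123158315), a sulfotransferase, was at 2.67, 8.03, 3.38 and 4.37 CPM in WT and at 19.5, 26.98, 12.7 and 9.42 CPM in ERRα-/- saline livers. Each ERRα-/- liver was above each WT liver (log2 difference 1.90, SE 0.380, adjusted p = 0.131, edgeR). Gstk1 was at 60.9, 50.4, 54.9 and 65.0 CPM in WT and, as given above, at 68.8 CPM or more in ERRα-/- livers (log2 difference 0.42, SE 0.121, adjusted p = 0.228, edgeR), also without overlap. Gstp1 was at 419.8, 877.0, 536.7 and 369.3 CPM in ERRα-/- livers against 682.7 to 1164 CPM in WT. Replicate 2 lay within the WT range and the other 3 below it (log2 difference -0.81, SE 0.262, adjusted p = 0.255, edgeR).

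The count in this comparison moved with the same replicate. Without ERRα-/- saline replicate 2, 7 members met the criterion as higher and 13 as lower, against 5 and 3 with it, beside 7.29% and 7.1% of all genes in that refit, and 0 members had an adjusted p under 0.05. Without replicate 4 of that group, 7 were higher and 1 lower, beside 5.05% and 4.89% of all genes. Without replicate 3 of either group, 4 were higher and 1 lower, beside 5.22% and 4.88% (ERRα-/-) and 5.19% and 5.03% (WT). The lower ones without replicate 2 were Gstp1, Gstp2, Sult2a8, Ugt1a7c, Ugt1a10 and 7 Ugt2b genes with Ugt2a3, which are the 8 Ugt2 members. The summed Ugt2 level was 2493 ± 208 CPM in WT and 1985 ± 478 CPM in ERRα-/- saline livers, and Ugt2b5 alone was at 583.2, 807.0, 577.6 and 560.4 CPM in the latter. Sult2a8 was at 391.5, 623.8, 341.9 and 360.9 CPM in them, with replicate 2 again the highest. Male-biased liver genes summed to 7806, 6967, 7700 and 6082 CPM in WT saline livers, against the 4388, 7010, 4487 and 3946 CPM of ERRα-/- saline livers, with 7 of 12 lower by the criterion, 0 higher and a median log2 difference of -0.57. Female-biased genes summed to 53.9, 16.7, 30.7 and 54.2 CPM in WT and 38.3, 47.2, 145.9 and 26.1 CPM in ERRα-/- saline livers, with 6 of 14 tested, 2 of these higher by the criterion and a median of 1.32. Their part in the Ugt2, Gstp1 and Sult2a8 values was not tested.

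After insulin, ERRα-/- livers were compared with WT livers in 3 and 4 samples. No member of 45 tested passed an adjusted p under 0.05 in edgeR's quasi-likelihood test, beside 0.0585% of all 13665 genes. DESeq2 called 3, Sult5a1 and Ugt1a9 as higher and Ugt1a5 as lower, beside 0.724% and 1.04% of all genes, and 6 had an unadjusted p under 0.05 in edgeR, or 13.3% beside 10.03%. By the criterion 5 were higher (Sult5a1, Ugt1a9, Ugt1a1, Sult1a1 and Ugt3a1), beside 4.57% of all genes, and 1 lower (Ugt1a5), beside 5.42%. Without WT insulin replicate 4, 7 were higher and 2 lower, beside 4.17% and 4.68% of all genes, and without ERRα-/- insulin replicate 2, 2 and 1, beside 2.35% and 3.43%. Members had a median log2 difference of 0.01, beside -0.02 for all genes. The samples are those of both insulin comparisons.

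Sult5a1 was at 6.00, 8.23, 2.49 and 4.88 CPM in WT and at 20.9, 28.8 and 22.1 CPM in ERRα-/- insulin livers. As after saline, each ERRα-/- liver was above each WT liver, with a log2 difference of 2.14 (SE 0.324, adjusted p = 0.0534, edgeR), and it was called as higher when WT insulin replicate 2 or replicate 3 was left out and with the replicate block, beside 0.171%, 0.0373% and 0.0293% of all genes. Insulin and saline values of Sult5a1 overlapped within each genotype. Ugt1a5, of the Ugt1 cluster, was at 13.7, 11.3, 20.7 and 17.5 CPM in WT and at 9.52, 8.37 and 9.28 CPM in ERRα-/- livers (log2 difference -0.81, SE 0.212, adjusted p = 0.208, edgeR). Ugt1a9, from the same cluster and with the same shared last exons, was at 25.8, 31.4, 15.9 and 20.8 CPM in WT and at 36.9, 50.1 and 36.3 CPM in ERRα-/- livers (log2 difference 0.80, SE 0.223, adjusted p = 0.251, edgeR). Neither gene overlapped between genotypes here, and the 2 lay in opposite directions. After saline both overlapped, with Ugt1a5 at 10.6, 14.2, 8.36 and 22.2 CPM in WT and 12.8, 6.57, 9.05 and 14.4 CPM in ERRα-/- livers, and Ugt1a9 at 18.2, 21.9, 29.1 and 19.8 CPM in WT and 24.8, 25.9, 39.4 and 17.0 CPM in ERRα-/- livers.

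**Figure D3:**
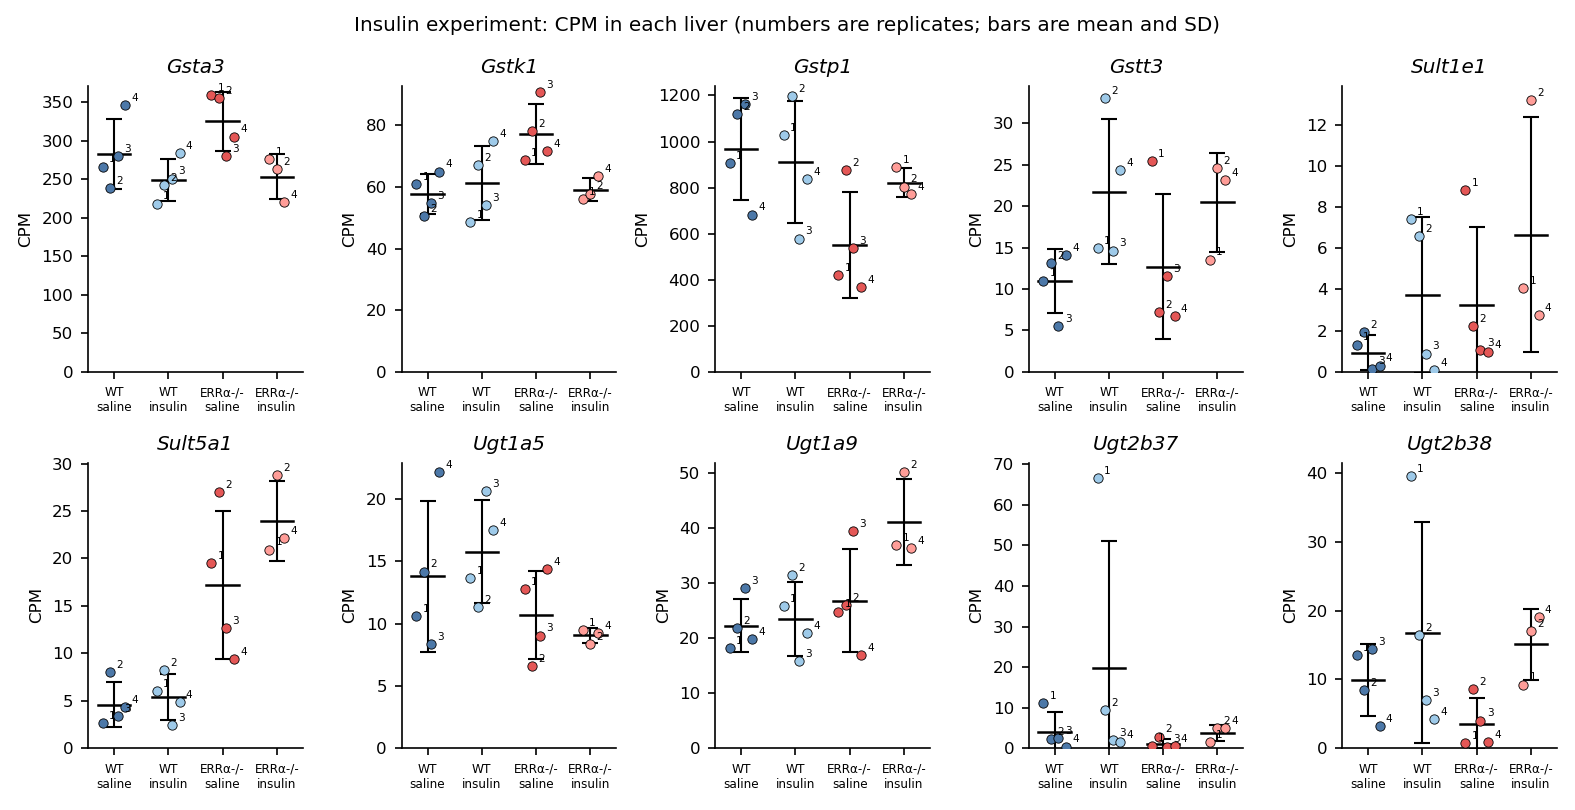
Level in CPM of 10 members in each of the 15 livers of the insulin experiment, with 1 point per liver marked by its replicate number and bars at the mean and SD of each group. Sult5a1 lies at 9.42 CPM or more in each ERRα-/- liver and at 8.23 CPM or less in each WT liver.

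**Figure D4:**
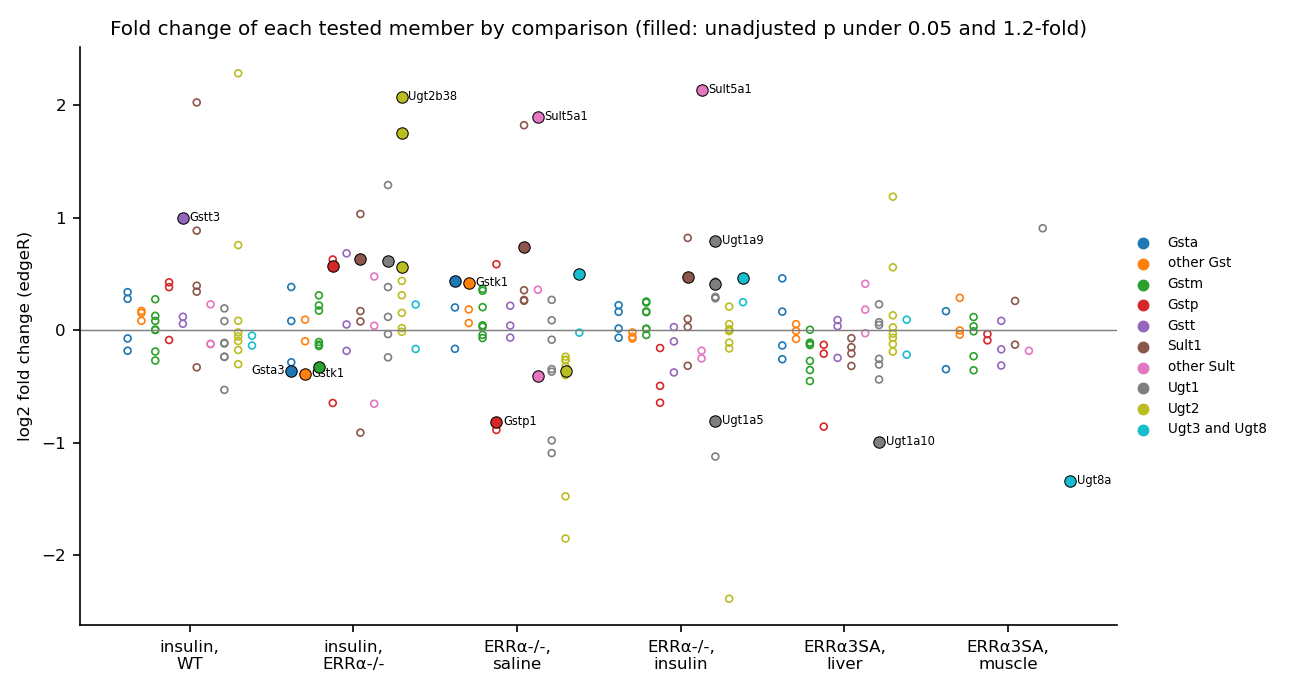
Log2 difference of each tested member in the 6 comparisons within liver or within muscle, with 1 point per member coloured by family and filled where the study's criterion was met. Most points lie near 0, and the farthest are those of Ugt2b37, at 2.28 with insulin in WT livers and at -2.39 for genotype after insulin, both unfilled and at 0.09 and -0.20 without WT insulin replicate 1.

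ERRα3SA livers were compared with WT livers to see what the allele alters in liver. No member of 44 tested passed an adjusted p under 0.05 in edgeR's quasi-likelihood test or in DESeq2, beside 0% of all 13339 genes in edgeR, and 1 member had an unadjusted p under 0.05, beside 7.47% of all genes. By the criterion 0 members were higher and 1 lower (Ugt1a10), beside 2.5% and 2.38% of all genes. On the log2 scale the median of members was -0.09, beside 0.00 for all genes. Ugt1a10 was at 0.603, 1.24, 1.18 and 1.02 CPM in WT and at 0.581, 0.716, 0.326 and 0.368 CPM in ERRα3SA livers. The groups overlapped at low counts (log2 difference -0.999, SE 0.343, adjusted p = 0.626, edgeR). Ugt2b37 was at 0.633, 1.02, 0.407 and 1.91 CPM in WT and at 2.054, 0.984, 0.558 and 5.34 CPM in ERRα3SA livers (log2 difference 1.19, SE 0.679, adjusted p = 0.736, edgeR, and 0.30 without ERRα3SA replicate 4). Ugt3a1 was at 81.5, 89.7, 77.8 and 69.1 CPM in WT and at 76.9, 67.3, 76.9 and 52.4 CPM in ERRα3SA livers (log2 difference -0.22, SE 0.127, adjusted p = 0.744, edgeR, and -0.11 without that replicate). Both overlapped.

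Replicates 3 and 4 of the ERRα3SA livers lay at opposite ends for many Gst and Ugt1 genes. Gstm1 was at 1311, 1186, 1521 and 629.3 CPM, Gsta3 at 1825, 1781, 2056 and 1027 CPM, and Ugt1a5 at 30.5, 47.9, 80.6 and 4.09 CPM in that group. Gstp1 went the other way, at 1861, 1040, 691.6 and 1812 CPM, as did Ugt2b38 at 10.5, 4.07, 2.19 and 37.96 CPM. Male-biased liver genes summed to 9222, 7562, 5565 and 12634 CPM in the same livers, lowest in replicate 3 and highest in replicate 4, and hepatocyte markers were lowest in replicate 4. Their part was not tested. Without replicate 4, 3 members met the criterion as higher (Gsta1, Gsta2 and Ugt1a5) and 2 as lower (Ugt1a10 and Ugt2b35), beside 2.86% and 3.74% of all genes, and 0 had an adjusted p under 0.05.

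In muscle, ERRα3SA samples were compared with WT samples, with 20 members tested and 26 too low. No member passed an adjusted p under 0.05 in edgeR's quasi-likelihood test, beside 0% of all 14081 genes, whereas DESeq2 called 1 as lower, Ugt8a, beside 0.107% of all genes, and 1 of 20 had an unadjusted p under 0.05 in edgeR, beside 4.77%. By the criterion 0 were higher, beside 2.78% of all genes, and 1 lower (Ugt8a), beside 1.75%. The members' median on the log2 scale was -0.04, beside 0.02 for all genes. Ugt8a (ENSMUSG00000032854, chr3:125865271-125938619) was at 6.56, 4.73, 4.77 and 4.19 CPM in WT and at 1.73, 1.70, 2.19 and 2.36 CPM in ERRα3SA muscles. All 4 ERRα3SA muscles lay below all 4 WT muscles (log2 difference -1.34, SE 0.214, adjusted p = 0.188, edgeR). Without ERRα3SA replicate 1, the muscle with the high mitochondrial share, Ugt8a passed an adjusted p under 0.05, with a log2 difference of -1.27, and 2.37% of all genes were then called as higher and 0.863% as lower. It did so too without replicates 1 and 4, at -1.38, a setting chosen after seeing the data, in which 6.62% and 3.7% of all genes were called.

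Gsto1, an omega-class transferase that reduces dehydroascorbate, was at 31.0, 33.6, 33.6 and 34.4 CPM in WT and at 49.4, 37.5, 41.1 and 33.8 CPM in ERRα3SA muscles. Its highest value was in replicate 1 and the groups overlapped in replicate 4 (log2 difference 0.29, SE 0.131, adjusted p = 1.00, edgeR, and 0.19 without replicate 1). Gstm1 was at 130.8, 133.9, 137.7 and 128.1 CPM in WT and at 98.7, 123.9, 119.0 and 72.5 CPM in ERRα3SA muscles, all below the WT samples, with replicates 1 and 4 the lowest (log2 difference -0.36, SE 0.163, adjusted p = 1.00, edgeR, and -0.12 without these 2). Without replicates 1 and 4, 3 members of 20 met the criterion, Ugt8a as lower and Gstm4 and Gstt1 as higher, beside 7.68% of all genes lower and 10.1% higher, so that count is near the background. Those libraries also set single values, with Gstp2 at 5.73 CPM in replicate 1 against 28.5, 28.1 and 29.5 CPM in the others, and Gstm5 at 93.8, 55.8, 53.9 and 43.1 CPM.

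**Figure D5:**
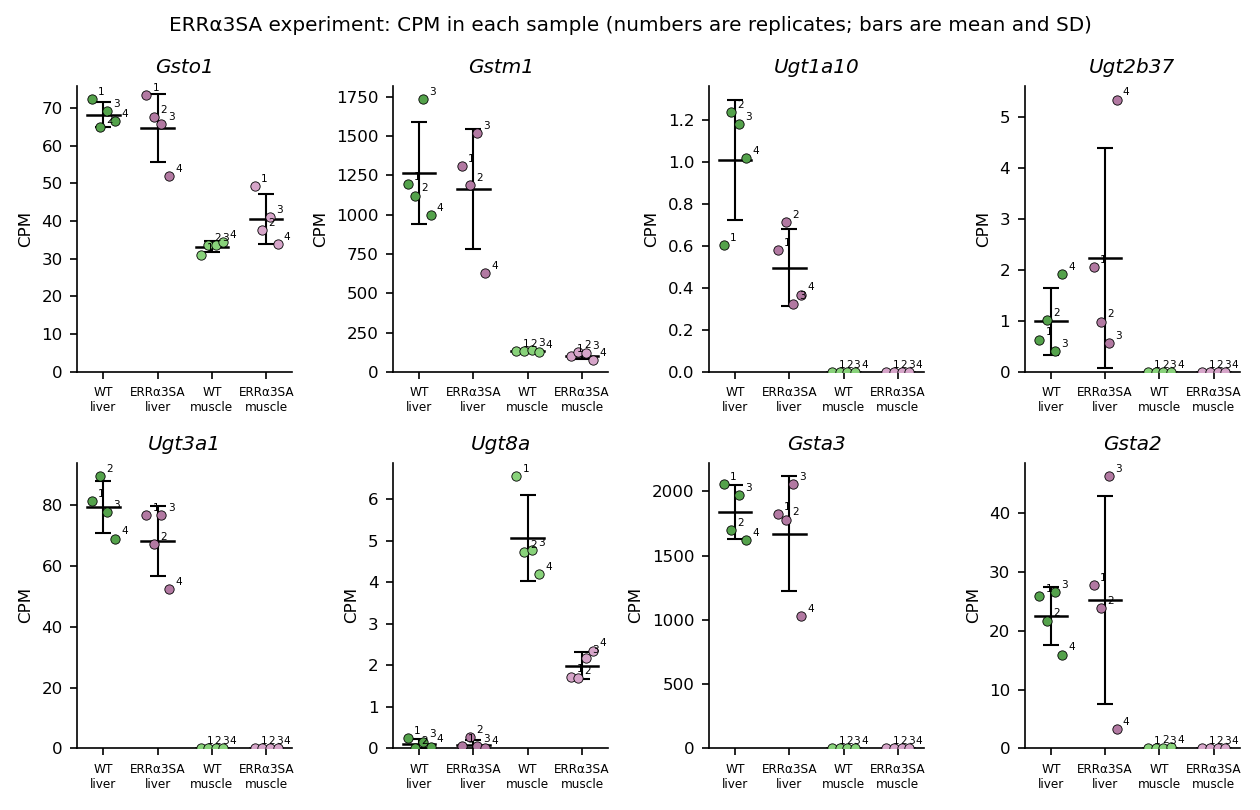
Level in CPM of 8 members in each liver and muscle of the ERRα3SA experiment, with 1 point per sample marked by its replicate number and bars at the mean and SD of each group. Ugt8a is at 4.19 CPM or more in each WT muscle and at 2.36 CPM or less in each ERRα3SA muscle.

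Genes around the conjugation enzymes were read from 12 lists, with counts at an adjusted p under 0.05 in the quasi-likelihood test of edgeR. Over all genes, 1.52% were higher and 1.63% lower at that threshold with insulin in WT livers, 1.56% and 1.35% with insulin in ERRα-/- livers, 0.0445% and 0.0371% for ERRα-/- against WT after saline, and 0.0293% each after insulin. Of 18 tested nuclear receptors and sensors, 1 rose and 1 fell with insulin in WT livers. Nr1i2, the xenobiotic receptor PXR, rose from 67.8, 73.4, 70.3 and 65.5 CPM to 114.9, 103.5, 120.5 and 120.4 CPM (log2 difference 0.73, SE 0.106, adjusted p = 0.00577), and Nr5a2, the receptor LRH-1, fell from 85.5, 82.9, 80.3 and 82.4 CPM to 40.5, 48.8, 47.4 and 45.1 CPM (-0.86, SE 0.108, adjusted p = 0.00271). Neither overlapped between groups. With insulin in ERRα-/- livers 0 of 18 passed, and Nr1i2 was at 81.9, 67.3, 82.0 and 55.9 CPM after saline and 104.0, 99.3 and 101.7 CPM after insulin. The interaction passed for 0 of 18. In ERRα-/- against WT livers, Esrra alone fell after saline and after insulin. The median log2 difference of the list was -0.11 with insulin in WT livers and 0.10 in ERRα-/- livers.

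Of 16 tested indicator genes of these receptors and of NRF2 outside the 3 families, 1 rose with insulin in WT livers, Srxn1, an NRF2 target, from 58.8, 56.8, 69.9 and 51.4 CPM to 102.7, 85.8, 100.6 and 112.8 CPM (log2 difference 0.76, SE 0.133, adjusted p = 0.0133, edgeR), without overlap. The list's medians were 0.10 in WT and 0.13 in ERRα-/- livers with insulin and 0.13 for ERRα-/- against WT after saline, with 0 called in these last 2. In ERRα3SA muscle replicate 4, Srxn1 was at 99.5 CPM against 31.3 CPM or less in the other muscles. The glutathione supply list (18 genes, 16 or 17 tested in liver) had 0 called in each comparison within liver, with medians of 0.10 for insulin in WT and -0.09 in ERRα-/- livers.

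Of 7 genes of UDP-glucuronate supply and glucuronide removal, 2 fell with insulin in WT livers, Slc35d1 and Slc35d2, and 1 in ERRα-/- livers, Slc35d1, which carries UDP-glucuronate into the endoplasmic reticulum. Slc35d1 was at 109.7, 96.7, 106.0 and 95.2 CPM in WT saline and 73.2, 56.8, 72.5 and 71.3 CPM in WT insulin livers (log2 difference -0.57, SE 0.121, adjusted p = 0.0286, edgeR). In ERRα-/- livers it was at 114.6, 106.4, 141.6 and 131.7 CPM after saline and 75.3, 67.1 and 80.7 CPM after insulin (-0.74, SE 0.126, adjusted p = 0.0171, edgeR). The groups overlapped in neither genotype. Medians of the list were -0.15 in WT and -0.06 in ERRα-/- livers. Of 12 tested PAPS and sulfate genes, 0 passed in any liver comparison (medians -0.07 and -0.02 with insulin).

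Among 20 tested conjugating enzymes of other kinds, Acsm5 fell with insulin in WT livers (-0.69, SE 0.116, adjusted p = 0.0119, edgeR). As3mt, which methylates arsenic, rose in ERRα-/- livers after saline, at 115.5, 103.7, 123.7 and 116.5 CPM against 60.6, 61.7, 48.8 and 53.2 CPM in WT (1.03, SE 0.109, adjusted p = 0.00756, edgeR), without overlap. After insulin it was at 126.8, 119.4 and 112.4 CPM against 66.6, 89.1, 60.3 and 52.0 CPM in WT, without overlap, and did not pass. Medians of the list were -0.14, -0.04, 0.07 and 0.05 for insulin in WT, insulin in ERRα-/-, and genotype after saline and after insulin. Of 14 exporters of conjugates 0 passed in the comparisons within liver, with medians of -0.06, 0.23, -0.18 and 0.26 in that order.

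Zonation and sex lists complete the account. Of 11 tested pericentral genes, Slc22a3 rose (1.503 and 1.103 on the log2 scale) and Lgr5 fell (-1.93 and -1.38) with insulin in WT and in ERRα-/- livers, with list medians of -0.15 and 0.05. Of 12 periportal genes, 1 rose with insulin in WT livers, Sds (1.13), with a list median of -0.04, and 0 passed with insulin in ERRα-/- livers (0.10). Male-biased genes had 0 of 12 called with insulin in WT livers (median -0.14), and the 4 tested sex chromosome genes had 0 called within liver. Of 5 tested female-biased genes 0 passed with insulin in WT livers (median 0.14). In ERRα3SA against WT livers or muscles, 0 genes of the 12 lists passed.

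The 11 cell type marker lists were read in the same way within liver. The stellate cell and fibroblast list had 1 of 6 called, Lrat, which fell with insulin in WT livers (-0.88), and the other 10 lists, among them hepatocyte, muscle fibre, cholangiocyte, macrophage, sinusoidal endothelium, lymphocyte, neutrophil, erythroid, adipocyte and exocrine pancreas markers, had 0 called in the comparisons within liver or within muscle in which any of their genes was tested. Hepatocyte medians were -0.03 and 0.10 for insulin in WT and ERRα-/- livers and 0.15 for ERRα-/- against WT livers after saline. Macrophage medians were -0.25, 0.18 and -0.39 in the same order, with 3 of 7 lower by the criterion in the last. Between WT muscle and WT liver, 8 of 8 hepatocyte markers fell and 8 of 8 muscle fibre markers rose.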

How the data were processed

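RNA of 15 livers of the insulin experiment and of 8 livers and 8 muscles of the ERRα3SA experiment was measured as counts per gene, which the authors made with STAR on mm10 and deposited as raw counts. Reads that overlapped more than 1 gene were not counted. Depth, from 20481405 to 48317108 counts per sample, limits members at a few counts. Genes were matched to GENCODE vM21 by identifier. Members and lists were chosen with earlier results of these data known.

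Each comparison was fitted on its own samples across all genes kept by edgeR's filterByExpr, with TMM factors and edgeR's quasi-likelihood test (edgeR 4.0.16, R 4.3.3) and Benjamini-Hochberg adjustment, with a threshold of 0.05. The interaction used all 15 livers. The study's criterion was a 1.2-fold difference or more together with p under 0.05 before adjustment. CPM and CPM per kb were computed here with TMM factors of each experiment and tissue, not with those of each fit. A fitted fold can thus differ from a ratio of CPM, as for Gstp1 in muscle against liver (19.7 and 18.4). The bounds on falls in muscle rest on these CPM. The fits were tested on simulated data. Replicates were checked by chi-square for samples closer than counting error allows, and the lowest chi-square per degree of freedom was 6.30.

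Genes named were the 3 members with the smallest unadjusted p in each comparison, in muscle against liver the 3 largest rises and the 6 largest falls by fitted value, the 2 highest per length of each family in WT saline livers and the 5 highest in WT muscles. Other genes named were chosen after their values were seen.

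Alternatives were DESeq2 1.42.0, median-of-ratios scaling, no filter, all 4 groups of an experiment in 1 fit, the replicate number as a block, each sample left out in turn, and all exon bases for levels per length. Protein sequences were not used here.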

Additional observations from a re-analysis of the deposited data

Results flagged for a closer look

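In each group of 4 samples, the level of each named member, the summed level of each family and the mitochondrial share of counts were examined for a single sample far from the other 3, by Dixon's criterion. Chance alone marks about 1 in 20 groups, or 13.9 of the 278 examined, and 18 were marked.

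In the insulin experiment, Ugt2b37 was at 66.5 CPM in WT insulin replicate 1 against 1.61 to 9.50 CPM in the other livers of its group, and at 2.88 CPM in ERRα-/- saline replicate 2 against 0.435 to 0.656 CPM. In that same liver, Ugt2b5 was at 807.0 CPM against 560.4 to 583.2 CPM, and Ugt1a10 at 0.655 CPM against 0.0443 to 0.131 CPM. Sult1e1 was at 8.82 CPM in ERRα-/- saline replicate 1 against 0.953 to 2.23 CPM. Gsta4 was at 19.97 CPM in WT insulin replicate 4 against 12.0 to 13.1 CPM. Gstz1 was at 618.9 CPM in WT insulin replicate 2 against 427.0 to 449.7 CPM, and the mitochondrial share of that library was 1.88% against 3.88% to 4.17%. The mitochondrial share of ERRα-/- saline replicate 3 was 3.91% against 3.16% to 3.21%.

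In livers of the ERRα3SA experiment, Ugt1a9 was at 40.1 CPM in WT replicate 3 against 17.5 to 19.5 CPM, and Gstm2 at 106.7 CPM in the same liver against 72.3 to 73.4 CPM. Ugt1a1 was at 58.1 CPM in ERRα3SA replicate 4 against 79.5 to 83.5 CPM. The summed Ugt2 level was 3801 CPM in ERRα3SA replicate 1 against 3556 to 3589 CPM.

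In ERRα3SA muscles, replicate 1 had a mitochondrial share of 19.3% against 9.15% to 9.85%, Gstp2 at 5.73 CPM against 28.1 to 29.5 CPM and a summed Gstp level of 56.7 CPM against 112.6 to 122.9 CPM. Replicate 4 had Gstk1 at 20.4 CPM against 28.8 to 30.5 CPM and a summed Gstm level of 149.1 CPM against 228.3 to 234.4 CPM.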

How the results depend on the processing

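Counts of members with an adjusted p under 0.05 were 0 in each comparison except muscle against liver, where it was 44, or 45 without a filter and with all 4 groups in 1 fit. DESeq2 called 1 with insulin in WT livers, 2 and 3 for ERRα-/- against WT after saline and after insulin, and 1 in ERRα3SA muscle. Without a filter the counts were 1 with insulin in ERRα-/- livers and 1 each for ERRα-/- against WT after saline and after insulin, all higher, beside 1.64%, 0.0894% and 0.0704% of all genes called as higher. With all 4 groups in 1 fit, 1 was called as higher for ERRα-/- against WT after insulin, beside 0.191%. With the replicate block, 1 was called with insulin in WT livers, 2 with insulin in ERRα-/- livers and 1 for ERRα-/- against WT after insulin. The labels tell neither whether samples within a tissue are paired by number nor whether liver and muscle share mice. Without ERRα3SA muscle replicates 1 and 4, chosen after seeing the data, 1 was called in muscle (Ugt8a). The cause of these moves was not tested.

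Counts by the study's criterion, which the study applied to DESeq2, moved more. DESeq2 gave 2 in ERRα3SA muscle against 1, beside 3.3% of all genes higher and 1.92% lower. Shares of all genes higher and lower follow in brackets. Without a filter they were 3 with insulin in WT livers (6.7% and 6.85%), 13 for ERRα-/- against WT after saline (4.88% and 4.86%) and 3 in ERRα3SA muscle (2.56% and 1.49%). With all 4 groups in 1 fit they were 2 with insulin in WT livers (9.52% and 9.74%) and 2 in ERRα3SA muscle (4.01% and 2.45%), and with the block 7 with insulin in WT livers (8.01% and 9.4%), 4 in ERRα3SA livers (2.3% and 2.62%) and 2 in ERRα3SA muscle (1.29% and 1.09%). Without ERRα3SA muscle replicates 1 and 4 the count was 3. Median-of-ratios scaling moved no count beyond 1.5 times.

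Leaving out 1 sample gave 0 to 3 members with an adjusted p under 0.05 with insulin in ERRα-/- livers, 0 to 1 for ERRα-/- against WT after insulin, 0 to 1 in ERRα3SA muscle and 0 in the other 4 comparisons with a count of 0. The 3 came without ERRα-/- saline replicate 2, and 1 each without its replicates 1 and 3. By the criterion the ranges were 1 to 5 with insulin in WT livers, 3 to 17 in ERRα-/- livers, 5 to 20 and 3 to 9 for ERRα-/- against WT after saline and after insulin, 1 to 9 for the interaction, 1 to 5 in ERRα3SA livers, 1 to 3 in ERRα3SA muscle and 44 to 44 for muscle against liver. ERRα-/- saline replicate 2 gave the 17, the 20 and the 9 of the interaction when left out, WT insulin replicate 4 gave the 9 after insulin (4.17% and 4.68%), and ERRα-/- saline replicate 3 or WT saline replicate 3 gave 5 after saline. ERRα-/- insulin replicate 2 gave 3 in both comparisons with a lowest count of 3 (5.41% and 6.85%, and 2.35% and 3.43%). For the interaction, ERRα-/- insulin replicate 1 or 2 or WT saline replicate 3 gave 1 (3.26% to 4.59% and 2.56% to 4.02%). With insulin in WT livers, WT saline replicate 1 gave 3 (7.22% and 7.69%) and WT insulin replicates 1 to 4 gave 2 (8.14% and 8.86%), 2 (7.72% and 7.86%), 4 (8.96% and 9.31%) and 5 (7.41% and 7.6%). In ERRα3SA livers, WT replicate 4 gave 2 (1.92% and 1.84%) and ERRα3SA replicates 3 and 4 gave 3 (3.02% and 2.28%) and 5 (2.86% and 3.74%). In muscle, ERRα3SA replicates 1 to 4 gave 3 (10.3% and 7.1%), 2 (3.19% and 1.54%), 2 (3.42% and 1.59%) and 2 (2.8% and 1.93%).

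Of 405 refits of the 30 named differences, 386 kept their direction and their side of the threshold, 19 came past it and 0 turned. With all exon bases, Gstm5 in WT muscle was 48.5 CPM per kb, and in WT saline livers Gstz1 was 85.0, Ugt1a1 14.4 and Ugt1a6b 12.2 CPM per kb, whereas 21 of 25 levels moved by less than 1 SD. Members at a few counts are limited by depth. Ugt1a10 had at most 28 counts in a sample of the insulin experiment and 33 in the ERRα3SA experiment. For Sult1e1 the highest counts were 481 and 17.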
